A study of Mus musculus with 40 samples.

Results

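Myh9 encodes the heavy chain of non-muscle myosin IIA, a motor that pulls on actin filaments. Filament assembly lowers the pool of monomeric actin, which otherwise binds and holds back MRTF, the coactivator of serum response factor (SRF). SRF in turn drives genes of actin and its partners. Bmal1 (gene Arntl) is the DNA-binding partner of Clock in the circadian activator, and the dHLH-Bmal1 construct lacks the basic helix-loop-helix domain with which Bmal1 contacts DNA. In melanoma, high Sox10 with neural crest and melanocytic genes marks one cell state, and high Sox9, Axl and matrix genes mark a mesenchymal state.

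The experiment described here asked what a Myh9 hairpin, shMyh9#4, did to the transcriptome of YUMM2.1 cells that carried dHLH-Bmal1. Its members are 4 of the 40 libraries of the series, chosen by label as the 2 libraries of dHLH-Bmal1 shMyh9#4 and the 2 of dHLH-Bmal1 with the scrambled control hairpin, shNC. YUMM2.1 is a mouse melanoma line with BrafV600E, heterozygous loss of Cdkn2a and a stabilised β-catenin. The dHLH-Bmal1 construct came in by a GFP lentivirus, the cells kept their own Bmal1, and the hairpins came in by a pLKO.1 lentivirus with puromycin selection, so each group is a selected pool of cells and not a clone. The same hairpins were put into YUMM2.1 with empty vector (EV) and with wild-type Bmal1 (WT-Bmal1), and a further hairpin, shMyh9#2, into all 3 lines, which gave 9 groups of 2 libraries that were fitted together. The 2 libraries of a group are biological duplicates by the methods of the study, and every p-value below measures only the spread between such libraries.

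Reads were 3′ tags, so a library counts transcript ends per gene. The 2 shNC libraries held 14718654 and 6347481 counts and the 2 shMyh9#4 libraries 3643332 and 6001340. The first of the shMyh9#4 libraries was the shallowest of the 18 hairpin libraries. Of 51789 genes, 14848 passed the filter on low counts and were tested. Each level is in CPM, that is, counts brought to a common library size after TMM normalization, and fold changes are log2 values with the standard error (SE) of the edgeR quasi-likelihood fit and a Benjamini-Hochberg adjusted p over all genes tested. A gene is called where that adjusted p is under 0.05. Fewer cells of a kind and less RNA per cell cannot be told apart in such bulk libraries.

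The cells were checked against lineage markers. Sox10 gave 161 to 327 counts and Mitf, the melanocyte regulator, 95 to 263 in the 4 libraries. Tyrp1 and Mlana, which act in pigment cells, were at 0 in all 18 hairpin libraries, and Tyr, Dct and Pmel did not pass 4 counts in the 4, so the pigment programme itself was at or near 0. The summed level of 9 leukocyte markers was 1.09 and 1.89 CPM with shNC against 3.84 and 3.17 CPM with shMyh9#4, with 6 or 7 of the 9 at 0 in each library. The 6 endothelial markers summed to 14.3 to 19.3 CPM, the 7 keratinocyte and epithelial markers to 3.17 to 5.51 CPM and the 9 fibroblast and muscle markers to 3.26 to 6.33 CPM. None of the tested members of these 4 lists was called.

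The shMyh9#4 libraries stood apart from their controls along an axis on which replicate libraries of other groups also differed. The axis was built from the differences between replicate 1 and replicate 2 in the 7 groups outside the comparison, over 10331 genes, and held 39.1% of those differences. Each library's position on it is called its library score, in SD over the 18 hairpin libraries. The score was -0.56 and -0.36 in the shNC libraries and 1.42 and 2.01 in the shMyh9#4 libraries of dHLH-Bmal1 cells. Replicates of 1 group lay as far apart elsewhere, at 1.42 and -0.43 in WT-Bmal1 shMyh9#4 and at 1.00 and -1.26 in dHLH-Bmal1 shMyh9#2. Both shMyh9#4 libraries thus sat at the high end of an axis along which replicates of the same hairpin also differed.

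Gene by gene, the shMyh9#4 fold changes followed this axis, with a Pearson r of 0.68 across genes to the weights of the axis, 0.61 to replicate 1 minus replicate 2 of WT-Bmal1 shMyh9#4 and 0.54 to the same difference in dHLH-Bmal1 shMyh9#2. None of those libraries entered the comparison, and genes are not independent replicates, so no p is given. Replicates of dHLH-Bmal1 shMyh9#4 also correlated least of the 9 groups, at 0.953 against 0.959 to 0.978. Processed pseudogenes took 0.955% and 0.702% of counts with shMyh9#4 against 1.56% and 1.47% with shNC, genes of ribosomal proteins 9.71% and 9.54% against 11.2% and 11.4%, and lincRNAs 5.53% and 5.68% against 4.1% and 4.14%. A hairpin effect and a difference in library make-up therefore cannot be told apart for genes that move along the axis, and the calls below are also given from a fit with the score as a covariate, an alternative added after the data were seen.

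**Figure D1:**
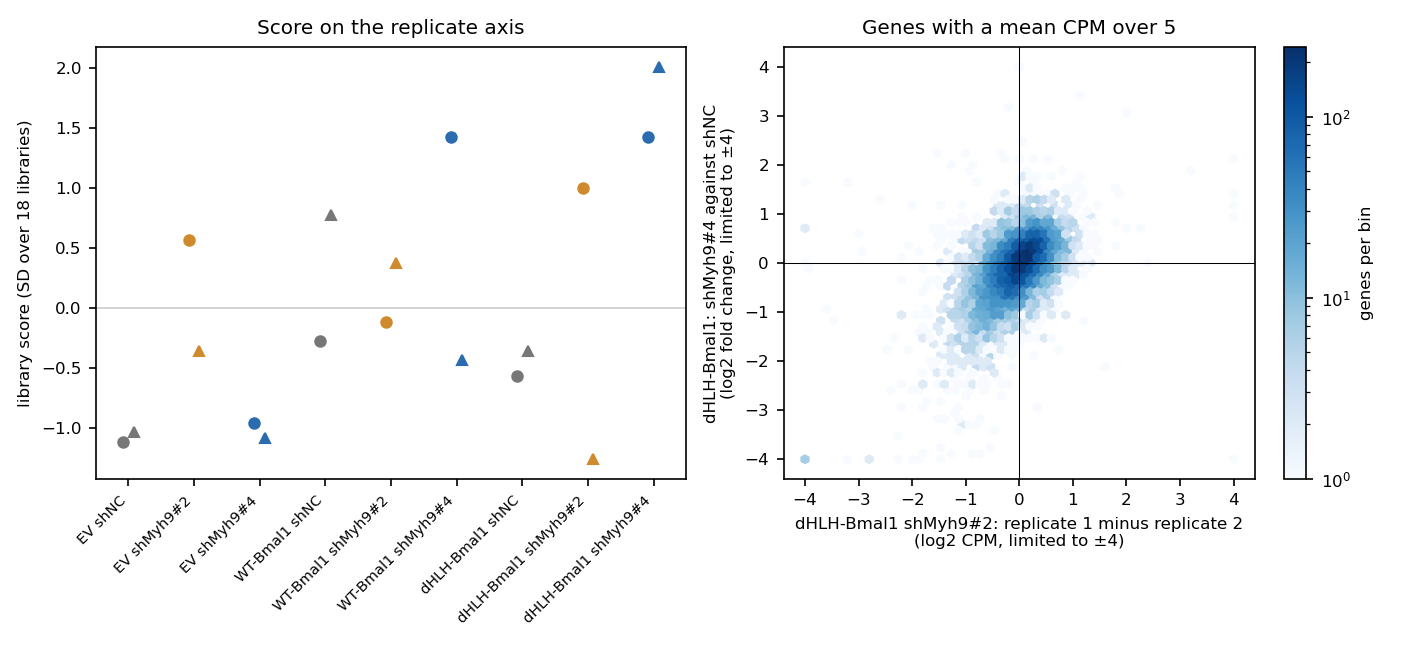
Left, the library score (in SD over 18 libraries) of each hairpin library, by group on the x axis, with circles for replicate 1, triangles for replicate 2, grey for shNC, orange for shMyh9#2 and blue for shMyh9#4. Right, for genes with a mean CPM over 5, the log2 fold change of shMyh9#4 against shNC in dHLH-Bmal1 cells (y axis) against the log2 difference of the 2 dHLH-Bmal1 shMyh9#2 replicates (x axis), with darker bins for more genes on a log scale. The 2 dHLH-Bmal1 shMyh9#4 libraries, at 1.42 and 2.01, are at the top of the left panel, and the cloud on the right is tilted upward.

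Myh9 itself, on chromosome 15 at 77760587 to 77842175 of the minus strand (mm10), was the check of the hairpin. It measured 881 and 859 CPM with shNC and 669 and 630 CPM with shMyh9#4 in dHLH-Bmal1 cells. The groups did not overlap, and the remaining level was 74.7% of control (870 ± 15.4 against 650 ± 28.0 CPM, mean ± SD, n = 2). The fall was 0.42 on the log2 scale (SE 0.09, edgeR adjusted p = 0.00715), and with the library score it was -0.52 (adjusted p = 0.026). The call was lost without shMyh9#4 replicate 2 or without shNC replicate 1.

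The same hairpin left Myh9 at 479 and 448 CPM against 682 and 645 CPM in EV cells, and at 528 and 461 CPM against 969 and 919 CPM in WT-Bmal1 cells. These were log2 changes of -0.52 (SE 0.09) and -0.93 (SE 0.09), both called. The drop in dHLH-Bmal1 cells was smaller than that in WT-Bmal1 cells by 0.51 (SE 0.13, edgeR adjusted p of the interaction = 0.0465, and 0.164 with the library score), while its difference from EV cells was 0.10 (SE 0.13, adjusted p = 0.711), which did not pass the test. The other hairpin, shMyh9#2, took Myh9 in dHLH-Bmal1 cells to 283 and 256 CPM, a log2 change of -1.69 (SE 0.10, adjusted p = 2.54e-08). Between the 2 hairpins Myh9 was 1.27 higher on the log2 scale with shMyh9#4 (SE 0.10, adjusted p = 5.96e-07). The hairpin described here was therefore the weaker on its target, and its group kept the highest Myh9 level of the 6 knockdown groups.

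**Figure D2:**
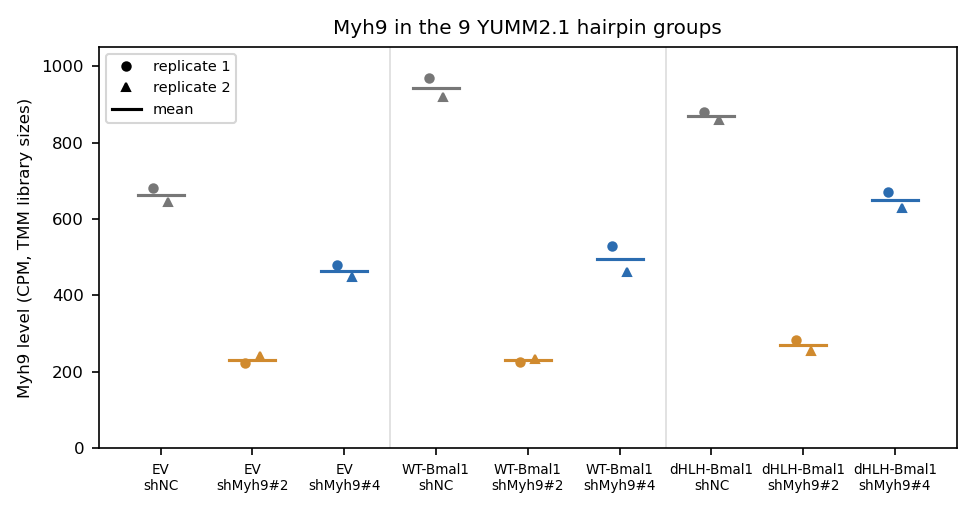
Myh9 level in CPM (y axis, from 0) in the 9 hairpin groups of YUMM2.1 (x axis), with a circle for replicate 1, a triangle for replicate 2 and a bar for their mean, in grey for shNC, orange for shMyh9#2 and blue for shMyh9#4. The dHLH-Bmal1 shMyh9#4 libraries, at 669 and 630 CPM, lie below their 2 controls and above every other knockdown library.

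With this modest knockdown, 2248 genes were called between shMyh9#4 and shNC, 15.1% of those tested, of which 932 were higher (6.28%) and 1316 lower (8.86%). With shMyh9#2, the stronger hairpin on Myh9, 83 genes were called against the same controls (0.559%), but with the library score the order turned, at 173 with shMyh9#4 and 213 with shMyh9#2. Of the 2248 genes, 180 rose and 600 fell by at least 1 on the log2 scale. The 2 groups did not overlap in 8678 of the genes tested (58.4%). Among 2107 called genes that entered the library score, 654 of the 888 higher genes were also higher in replicate 1 of both WT-Bmal1 shMyh9#4 and dHLH-Bmal1 shMyh9#2, against 34.0% of all genes, and 984 of the 1219 lower genes were also lower there, against 31.5%.

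The number of calls depended on the score and on single libraries. With the library score in the fit 173 genes were called, 63 higher and 110 lower, and 168 of them were called in the same direction without it. Without shMyh9#4 replicate 2, the library with the highest score, 194 were called, without shNC replicate 1 541 and without shNC replicate 2 1079. Besides a requirement of a log2 change of at least 1, 13 alternatives were run for this comparison. Across these 13, 108 genes kept their call and direction, 42 higher and 66 lower, and 2140 lost it under at least 1. Of the 108, 21 of the 42 and 46 of the 66 also changed by at least 1 on the log2 scale. The account below turns on these 108 genes and says of others where the score changed their call. They were picked for keeping their call and are described, with no further test of the set.

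**Figure D3:**
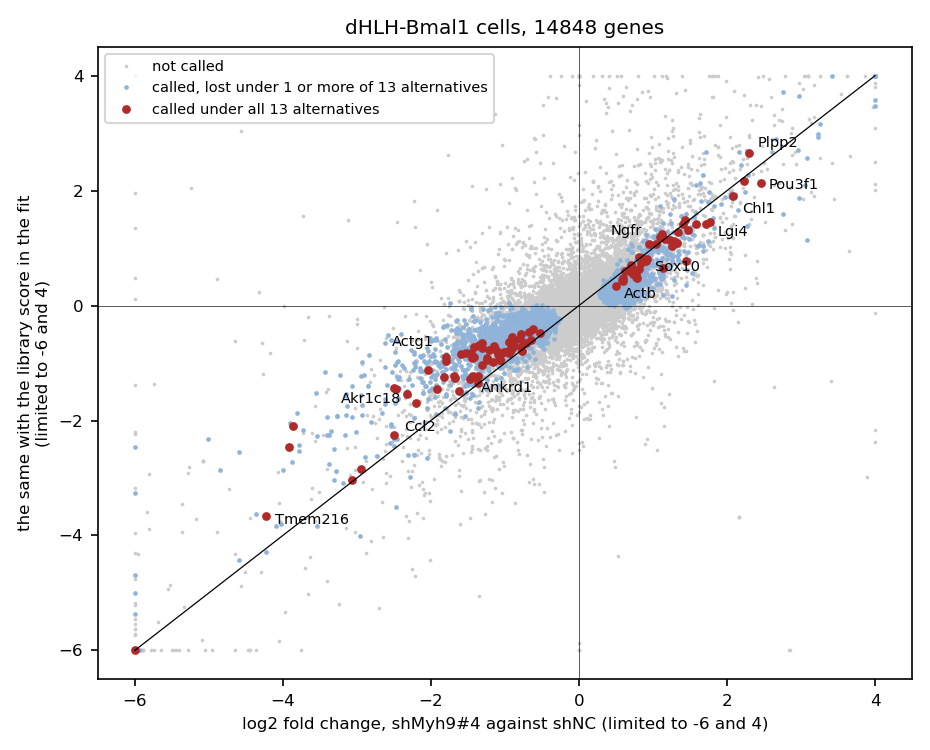
Each point is 1 of 14848 genes, with the log2 fold change of shMyh9#4 against shNC in dHLH-Bmal1 cells (x axis) and the same from the fit with the library score (y axis), both limited to -6 and 4, and the diagonal marking equal values. Grey genes were not called, blue genes were called and lost under at least 1 of the 13 alternatives, and the 108 red genes were called under all 13, 42 of them on the higher side.

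Among the genes that rose with shMyh9#4 were several known from neural crest and Schwann-type cells. Sox10, the transcription factor that keeps neural crest derivatives in their lineage, went from 22 and 25.6 CPM to 45.3 and 44.1 CPM. The groups did not overlap, as in 58.4% of all genes tested. Sox10 rose by 0.92 (SE 0.12, edgeR adjusted p = 0.000469), or by 0.81 with the library score (adjusted p = 0.0175). Ngfr, the low-affinity nerve growth factor receptor and a marker of neural crest-like melanoma cells, went from 46.3 and 55.6 to 109 and 100 CPM, 1.05 higher (SE 0.12, adjusted p = 0.000175). In both genes each shMyh9#4 library lay well above each control, and the 3′ end of neither shares 50-base words with another transcript.

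Chl1, a neural cell adhesion molecule, had a larger rise, from 17 and 16.8 CPM to 55.3 and 87.0 CPM. The change was 2.09 (SE 0.17, edgeR adjusted p = 5.73e-06) and 1.91 with the score. Lgi4, a protein that Schwann cells secrete, went from 15.3 and 19.2 to 47.8 and 66.3 CPM, 1.76 higher (SE 0.17, adjusted p = 2.75e-05). In both genes replicate 2 of shMyh9#4 was the higher library and even replicate 1 lay far above both controls. Ecel1, an endopeptidase of neurons, went from 29.4 and 27.2 to 67.9 and 74.1 CPM, 1.32 higher (SE 0.12, adjusted p = 1.22e-05).

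Pou3f1, a POU factor of Schwann cell development also called Oct6, was low throughout, at 0.876 and 0.953 CPM with shNC and 5.01 and 5 CPM with shMyh9#4. Its rise of 2.45 (SE 0.35, edgeR adjusted p = 0.000821) rests on few counts, and the groups did not overlap. Plpp2, a lipid phosphate phosphatase, went from 1.75 CPM in both controls to 11.1 and 6.72 CPM, 2.30 higher (SE 0.33, adjusted p = 0.000859). Cdh6, a cadherin of the neural crest, went from 5.46 and 6.2 to 15.9 and 21.5 CPM (1.71 higher), and Nkd2, an inhibitor of Wnt signalling, from 10.3 and 17.8 to 37.8 and 36.9 CPM (1.47 higher). In all 4 genes each shMyh9#4 library lay above both controls, which the naming rule required of Plpp2 and Cdh6. The groups did not overlap in 58.4% of all genes tested.

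Matrix and adhesion genes were among the risers as well. Lama4, a laminin chain of vessel and nerve basement membranes, went from 32.3 and 35.4 to 78.7 and 72.9 CPM, 1.16 higher (SE 0.11, edgeR adjusted p = 2.75e-05). Col11a1, a chain of fibrillar collagen, went from 11.2 and 10.3 to 25 and 31.9 CPM, 1.41 higher (SE 0.17, adjusted p = 0.000272). Itga4, the integrin subunit that binds fibronectin and VCAM-1, went from 58.8 and 65.9 to 113 and 104 CPM, 0.81 higher (SE 0.12, adjusted p = 0.0011). All 3 kept the call under the 13 alternatives. Of further genes with that property, chosen after their values were seen, Pcolce2, a helper of collagen processing, was 1.58 higher, Metrn, a factor for glia and neurites, 1.14 higher, Runx1, a transcription factor, 0.75 higher, and Cadm1, an adhesion molecule, 0.60 higher. Il11, a cytokine of the interleukin-6 family, went from 47.1 and 53.2 to 100 and 88.2 CPM, 0.91 higher (SE 0.12, adjusted p = 0.000385).

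Among the genes that fell was Ccl2, the chemokine that attracts monocytes, which went from 14.4 and 14.3 to 1.67 and 3.10 CPM. The groups were far apart, and the change was -2.50 (SE 0.39, edgeR adjusted p = 0.00117), or -2.26 with the library score (adjusted p = 0.027). Its level in the other 8 groups lay between 10.4 and 23.4 CPM in every library, so the 2 dHLH-Bmal1 shMyh9#4 libraries were the only ones of 18 below 10 CPM.

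Ankrd1, a cardiac ankyrin repeat protein that is a standard target of YAP and TEAD, fell evenly in both libraries, from 73.0 and 73.2 to 26.1 and 26.7 CPM (-1.47, SE 0.15, edgeR adjusted p = 4e-05). Htra1, a secreted serine protease, went from 62.9 and 65.8 to 28.9 and 28.4 CPM (-1.16, SE 0.17, adjusted p = 0.000897). Akr1c18, an aldo-keto reductase that inactivates progesterone, was chosen after its values were seen and went from 172 and 161 to 35.3 and 37.0 CPM (-2.20, SE 0.19, adjusted p = 1.22e-05). Replicates of these 3 genes lay close together in both groups. Cks2, a partner of cyclin-dependent kinases chosen in the same way, went from 74.9 and 65.6 to 27.0 and 24.8 CPM (-1.45).

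Several falls that kept their call were in genes that replicates elsewhere also spread. Akt1, the kinase downstream of PI3K, chosen after its values were seen, went from 219 and 213 to 70.7 and 36.3 CPM, and its replicates differed by -1.13 in WT-Bmal1 shMyh9#4. Tmsb10, a thymosin that binds monomeric actin and was chosen likewise, was at 980 and 892 against 365 and 283 CPM, with replicate differences of -0.71 in WT-Bmal1 shMyh9#4 and -0.63 in dHLH-Bmal1 shMyh9#2. Over the 66 lower genes, 40 had replicate differences under 0.5 in both of those groups, and so had 39 of the 42 higher genes. These genes had to keep their call with the score, which was built in part from the same replicate differences. The counts are therefore no independent evidence, and the share over all genes was not taken. Ribosomal protein genes made up 8 of the 66, with log2 changes of -0.65 (Rps27a) to -1.83 (Rpl22l1), named for these extremes, and none of the 42. Their share among all genes tested was not taken, so nothing is drawn from this count. Their 3′ ends were not searched for words shared with other transcripts.

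A few genes were all but lost from the shMyh9#4 libraries. Gm4737, a protein-coding gene model outside the naming rule, had 42.4 and 40.7 CPM with shNC and no count in either shMyh9#4 library, at least 61.5-fold lower when each library is set at a floor of 3 counts. Its level ran from 12.2 to 56.3 CPM in the other groups. Tmem216, a protein of the ciliary transition zone, went from 5.93 and 6.51 to 0.278 and 0.344 CPM, and Thnsl1, a threonine synthase-like protein, from 4.78 and 4.29 to 0.556 and 0.517 CPM. At the shallow depth of these libraries such levels are 1 to 3 counts each, and the size of the fall is uncertain.

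**Figure D4:**
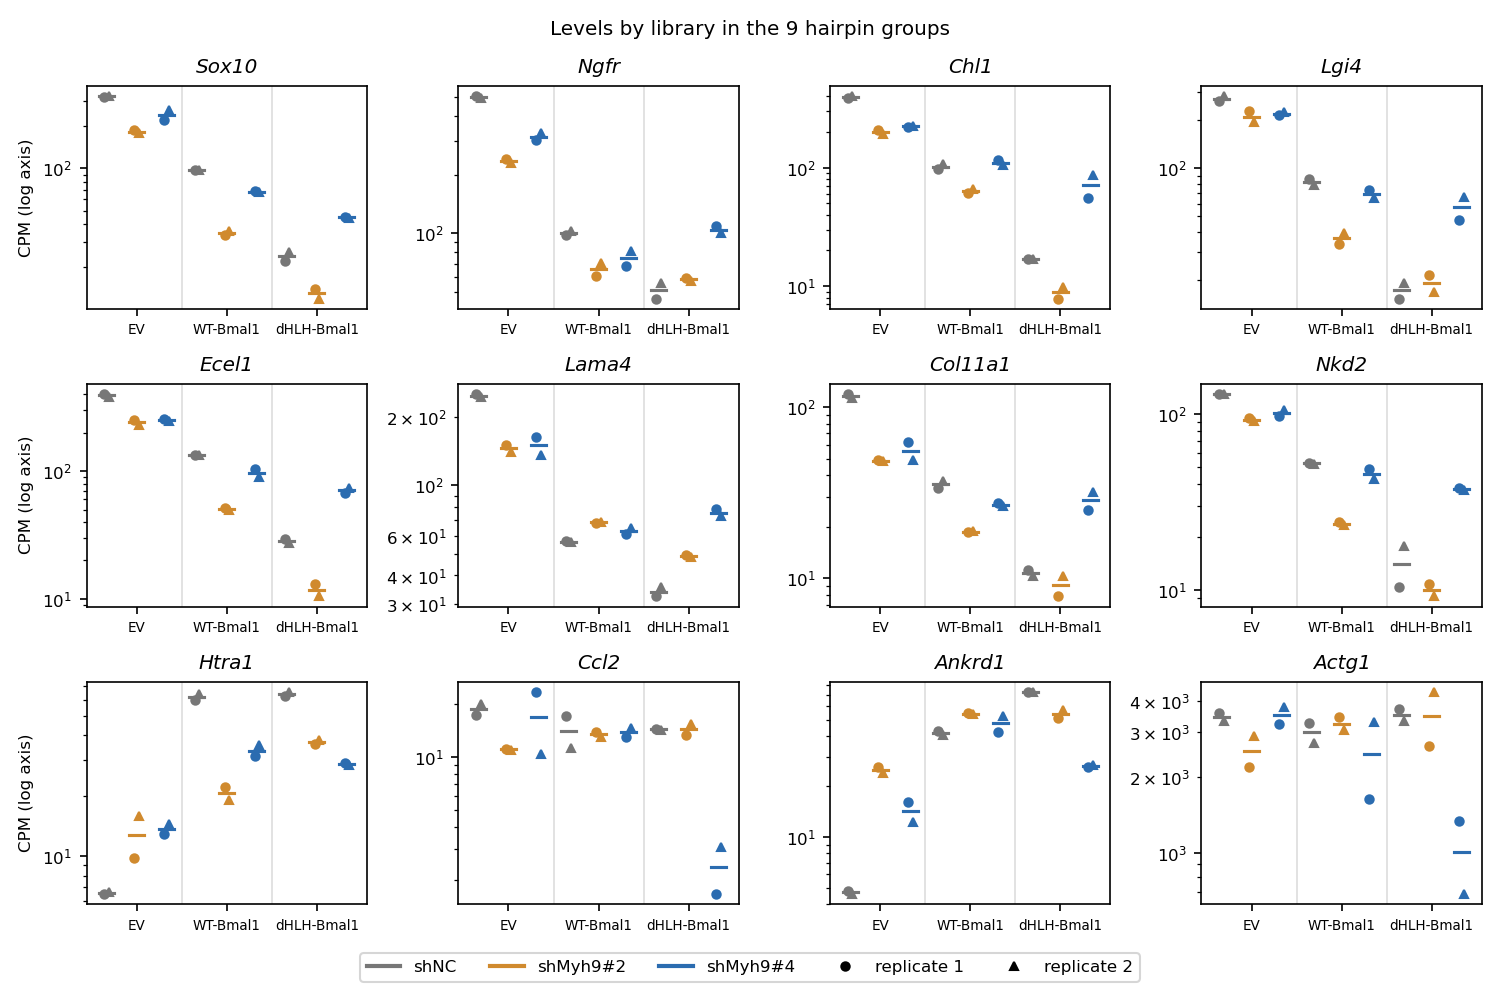
Levels of 12 genes in CPM (log y axes, 1 panel a gene) in the 3 lines EV, WT-Bmal1 and dHLH-Bmal1, with circles for replicate 1, triangles for replicate 2 and bars for means, in grey for shNC, orange for shMyh9#2 and blue for shMyh9#4. In the upper 8 panels the 2 blue dHLH-Bmal1 points are above the grey ones (Sox10 45.3 and 44.1 against 22 and 25.6 CPM), and in the lower 4 panels they are below (Ankrd1 26.1 and 26.7 against 73.0 and 73.2 CPM).

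Genes were also grouped by role, with the background that 15.1% of all genes tested were called and that the median log2 change over all of them was -0.004. Of 20 myosin II genes and regulators, 1 was higher and 3 lower. Myl12a, a regulatory light chain of non-muscle myosin, went from 220 and 194 to 92.9 and 74.2 CPM (-1.32, SE 0.21, edgeR adjusted p = 0.00117) and kept its call under the 13 alternatives, although 22.7% of the 50-base words at its 3′ end also occur in other transcripts, Myl12b among them. Ppp1cb, the catalytic subunit of myosin phosphatase, changed by -0.86 and Mylk, the myosin light chain kinase, by 1.13, from 22.3 and 24.5 to 52.8 and 49.4 CPM. Both lost the call with the library score.

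The 32 tested targets of MRTF and SRF had 4 called higher and 3 lower, with a median log2 change of -0.006. The 2 cytoplasmic actins went opposite ways. Actb, β-actin, went from 11419 and 11561 to 15669 and 16811 CPM (0.50, SE 0.07, edgeR adjusted p = 0.000911). Actg1, γ-actin, went from 3703 and 3316 to 1332 and 686 CPM (-1.80, SE 0.30, adjusted p = 0.00131), and the 2 shMyh9#4 libraries differed from each other nearly as widely as replicates did in WT-Bmal1 shMyh9#4 (1633 and 3281 CPM). Both calls held under the 13 alternatives, although the rise of Actb was under 1 on the log2 scale, but 45.2% of the 3′ words of Actg1 and 10.3% of those of Actb also occur elsewhere, many in pseudogenes, and the share of counts in processed pseudogenes was lower in the same libraries, whose part in the result was not tested. With the score the Actg1 change was -0.89 and the Actb change 0.35.

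Srf itself went from 57.7 and 58.3 CPM to 35.3 and 20.7 CPM, a log2 change of -1.08 (SE 0.20, edgeR adjusted p = 0.0024). The groups did not overlap, but the adjusted p was 0.117 with the library score and the call was lost without shMyh9#4 replicate 2. The other called targets, among them Csrp1 (0.65), Tagln2 (0.58) and Tpm4 (-0.62), also lost the call with the score, and Mrtfa, the coactivator, measured -0.49 (adjusted p = 0.146). SRF binds a CArG box, searched here by its usual consensus on both strands in promoters from RefSeq (GRCm38.p6, 250 bases before to 50 after the gene start). The box was in 1.81% of 27025 promoters, in 1.57% of those of genes tested, in 28.6% of those of the MRTF-SRF list (8 of 28 with a promoter), in 1.7% of those of genes called higher and in 1.21% of those of genes called lower. No promoter of Actb was among those searched, so whether it holds a box was not examined. The promoters of Srf (chr17:46556113-46556412, minus strand, 2 boxes) and of Actg1 (chr11:120348446-120348745, minus strand, 1 box) are shown because these genes fell while Actb rose, with the CArG boxes in capitals.
Srf: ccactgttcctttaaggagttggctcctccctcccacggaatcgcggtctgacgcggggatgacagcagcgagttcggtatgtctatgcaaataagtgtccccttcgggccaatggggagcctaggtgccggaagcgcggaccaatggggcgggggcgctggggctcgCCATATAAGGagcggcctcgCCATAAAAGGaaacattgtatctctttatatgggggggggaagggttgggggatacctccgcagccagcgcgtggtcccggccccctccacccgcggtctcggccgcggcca
Actg1: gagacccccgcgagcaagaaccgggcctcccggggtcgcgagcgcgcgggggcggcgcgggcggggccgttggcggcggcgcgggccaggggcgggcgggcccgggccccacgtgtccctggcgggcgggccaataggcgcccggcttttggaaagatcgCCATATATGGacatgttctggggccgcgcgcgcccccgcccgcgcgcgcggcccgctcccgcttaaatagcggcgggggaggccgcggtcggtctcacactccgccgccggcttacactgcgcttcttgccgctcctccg

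Focal adhesion and integrin genes had the highest called share of the lists with more than 10 members tested, 17 of 27 (63.0%), with 7 higher, 10 lower and a median of 0.12. Cttn, cortactin, which sits on branched actin, fell most, from 282 and 249 to 75.4 and 41.0 CPM (-2.22, SE 0.37, edgeR adjusted p = 0.00135), but its replicates in WT-Bmal1 shMyh9#4 stood at 101 and 262 CPM. Itga1, the collagen-binding α1 integrin, rose from 8.29 and 7.79 to 21.4 and 21.9 CPM (1.42, SE 0.23, adjusted p = 0.00127, and 0.0559 with the score). Fermt2 (-1.20) and Bcar1 (-1.06), which couple integrins to the cell, fell as well. Only Itga4, Actn4 and Cttn of the list were called with the score, and of these Itga4 and Actn4, the actin cross-linker α-actinin-4 (299 and 296 to 205 and 167 CPM, -0.68), kept the call under the 13 alternatives.

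Of 19 targets of YAP and TEAD, 1 was higher and 5 lower (31.6%), with a median of -0.13. Ankrd1, given above, and Ajuba, a LIM protein (26.0 and 23.8 to 12 and 15.0 CPM, -0.87), were also called with the library score, while Lats2 (-0.86) was not. AP-1 and ATF factors had 2 higher and 3 lower of 17. Junb, a Jun family member, went from 42.9 and 48.8 to 17 and 19.8 CPM (-1.30, SE 0.20, edgeR adjusted p = 0.00107), with an adjusted p of 0.0509 with the score. Fosl1, its Fos family partner, changed by -1.23 and Jdp2, a repressor of AP-1, by 0.98, and no member of the list was called with the score. Jun measured 0.11 and Jund 0.16, neither called.

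The output genes of the MAPK pathway, which is active in these Braf mutant cells, were split, with 3 higher and 4 lower of 21. Etv4 (0.79) and Etv5 (0.65), ETS factors, rose. Of the feedback inhibitors, Spry4 (-1.92), Dusp1 (-1.61) and Dusp6 (-1.41) fell, while Dusp4 rose (0.78). Dusp6 was at 58.1 and 57.0 against 26.1 and 18.1 CPM, and at 31.7 and 77.9 CPM in the 2 replicates of WT-Bmal1 shMyh9#4. No call in this list survived the score.

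Mesenchymal melanoma genes were mixed, with 5 higher and 8 lower of 33 (39.4%) and a median of -0.08. Genes that fell included Lmo1, a LIM-only cofactor (-1.39), Pdgfrb, the β receptor for platelet-derived growth factor (-1.27), and Prrx2, a homeobox factor (29.0 and 25.4 to 12.8 and 10.3 CPM, -1.25, SE 0.30, edgeR adjusted p = 0.011), all lost with the score. Ngfr (1.05) was the largest rise and was also called with the score. Several genes that define the state did not pass the test. Sox9 was at 323 and 326 against 367 and 423 CPM (0.28, adjusted p = 0.0717), Snai2, also called Slug, at 86.4 and 81.8 against 66.5 and 66.0 CPM (-0.35, adjusted p = 0.0773), Fn1, fibronectin, changed by -0.18, Klf4 by 0.22, Twist2 by 0.03 and Axl, a receptor kinase of this state, by 0.23.

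Collagens and matrix genes had 8 higher and 5 lower of 34, with a median of 0.12. Col1a1, the main chain of type I collagen, stood at 193 and 177 against 205 and 203 CPM (0.14, edgeR adjusted p = 0.43), while Col1a2, its partner chain, was called at -1.57 and lost with the score, as was Lama5 (-1.57). Col11a1 and Lama4 were the members called with the score. Matrix proteases and their inhibitors had 2 higher and 4 lower of 20, led by Htra1.

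Melanocytic genes had 2 higher of 15 and none lower at an adjusted p under 0.05, with Sox10 among the risers. Targets of Bmal1 and Clock had 2 higher and none lower of 16 (12.5%, against 15.1% of all genes tested). These were Usp2 (0.92) and Wee1 (0.66), both lost with the score. The median was 0.37 against -0.004 for all genes, and 0.165 with the score. With shMyh9#2 against the same controls it was 0.305. Members that were not called ran from -0.98 (Per2) to 0.76 (Nr1d1). Of other members of the loop, Arntl, Bmal1's own gene, stood at 48.0 and 36.7 against 51.2 and 48.2 CPM (0.22, adjusted p = 0.434), Dbp at -0.09 and Nr1d1, REV-ERBα, at 0.76 (adjusted p = 0.0933), and only Arntl2 (-1.53) was called among 3 activators, a call lost with the score (adjusted p = 0.125). Of 34 cell cycle genes 2 were higher and 7 lower, led by Cdk1, the mitotic kinase, at 220 and 203 against 55.9 and 41.5 CPM (-2.13), whose replicates in WT-Bmal1 shMyh9#4 stood at 78.0 and 222 CPM.

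The remaining lists are given by their counts. Hypoxia response genes had 4 higher and 7 lower of 43, unfolded protein and ATF4 genes 2 and 6 of 27, sterol and fatty acid synthesis genes 3 and 2 of 26, NRF2 targets and metallothioneins 3 and 2 of 16, antigen presentation genes 1 and 3 of 17, cytokines and chemokines 2 and 2 of 19, interferon-stimulated genes 1 and 1 of 23, Wnt targets 1 and 1 of 12 and p53 targets 1 and 0 of 20. With the library score in the fit, the called members of all these lists together were Psme2, a proteasome activator subunit (-0.94), Ccl2, Il11, Pdia4, a chaperone of the endoplasmic reticulum (0.82), and Nkd2.

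The same hairpin was tested in EV cells, which shares no library with the comparison in dHLH-Bmal1 cells, and 254 genes were called there (1.71% of those tested). Sox10, Ngfr and Chl1 began high in EV cells and fell. Sox10 went from 320 and 324 CPM to 218 and 257 CPM (-0.44, SE 0.10, edgeR adjusted p = 0.0374), Ngfr from 507 and 495 to 301 and 326 CPM (-0.67) and Chl1 from 389 and 403 to 222 and 225 CPM (-0.82). Even after their rise, the dHLH-Bmal1 shMyh9#4 libraries held less of all 3 than any EV library. Ecel1 (-0.64), Lama4 (-0.73), Col11a1 (-1.06) and Itga4 (-0.55) were also called lower in EV cells. Lgi4 (-0.31, adjusted p = 0.467), Cdh6 (-0.29, adjusted p = 0.672) and Pou3f1 (-0.59, adjusted p = 0.174) were not called there.

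The interaction term tested whether the hairpin acted differently in the 2 lines, and 1264 genes passed (8.51%), against 461 with the library score. The effect in dHLH-Bmal1 cells exceeded that in EV cells by 1.36 for Sox10 (SE 0.16, edgeR adjusted p = 0.000123), 1.72 for Ngfr (SE 0.17, adjusted p = 1.02e-05), 2.91 for Chl1 (SE 0.22, adjusted p = 1.62e-06) and 1.90 for Lama4 (SE 0.15, adjusted p = 1.86e-06). In EV cells 216 of all 14848 genes tested were called higher and 38 lower. Of the 42 genes that rose in dHLH-Bmal1 cells under the 13 alternatives, 7 were called lower and 0 higher in EV cells. Of the 66 that fell, 4 were called higher and 0 lower in EV cells. Ankrd1 was 1 of these, rising in EV cells from 4.79 and 4.57 to 16.1 and 12.3 CPM (1.60, SE 0.18, adjusted p = 8e-05), with a difference of -3.06 between the lines.

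Mesenchymal genes differed between the 2 lines in the other direction. Sox9 rose in EV cells from 115 and 111 to 260 and 281 CPM (1.26, SE 0.11, edgeR adjusted p = 6.67e-06), and the effect in dHLH-Bmal1 cells was lower by 0.98 (SE 0.15, adjusted p = 0.000941). Snai2 rose in EV cells by 1.08, and the difference was -1.43 (SE 0.19, adjusted p = 0.000316). Sox9 already stood at 323 and 326 CPM in dHLH-Bmal1 shNC, above the EV shMyh9#4 libraries, and so did Snai2 at 86.4 and 81.8 against 35.8 and 36.7 CPM. Col1a1 (1.58 in EV cells, difference -1.44), Fn1 (0.71, difference -0.89) and Klf4 (0.94, difference -0.72) passed both tests in the same way, and Twist2 (1.13 in EV cells) did not pass the test of the difference (-1.10, adjusted p = 0.0564). Across the whole mesenchymal list, 8 were called higher and 4 lower of 33 in EV cells, and the difference between the lines was called positive for 5 and negative for 13.

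In WT-Bmal1 cells the hairpin called 35 genes (0.236%), and the interaction between dHLH-Bmal1 and WT-Bmal1 cells 461 (3.1%). With the library score 105 interactions were called. Sox10 measured 96.2 and 96.8 with shNC against 68.8 and 67.2 CPM with shMyh9#4 in WT-Bmal1 cells (-0.51, edgeR adjusted p = 0.0584), and the effect in dHLH-Bmal1 cells exceeded it by 1.43 (SE 0.17, adjusted p = 0.000329). Chl1 (difference 1.98), Lgi4 (2.02), Ecel1 (1.79), Ngfr (1.46), Pou3f1 (3.02) and Plpp2 (3.15) also passed. These 7 genes were called higher with the hairpin in dHLH-Bmal1 cells and in neither other line. Sox10, Ngfr, Chl1 and Pou3f1 were among those that passed the test of the difference against each. They were not alone, since 40 of the 42 risers differed in the same direction from EV cells and 28 from WT-Bmal1 cells. Over all genes tested, 8.51% and 3.1% differed, in either direction. The 42 were picked by their rise in the same dHLH-Bmal1 libraries, so these counts are no independent evidence.

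Among falling genes, Ankrd1 (-1.67), Ccl2 (-2.49, SE 0.50, edgeR adjusted p = 0.0158), Akr1c18 (-1.51) and Cks2 (-1.44) differed from WT-Bmal1 cells. Htra1 fell in WT-Bmal1 cells too, from 59.5 and 64.0 to 31.4 and 35.5 CPM (-0.88, SE 0.17, adjusted p = 0.0394), the 1 gene of the 66 called there, and rose in EV cells from 6.46 and 6.63 to 12.9 and 14.5 CPM (1.07). Of the 42 risers none was called in WT-Bmal1 cells at an adjusted p under 0.05.

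**Figure D5:**
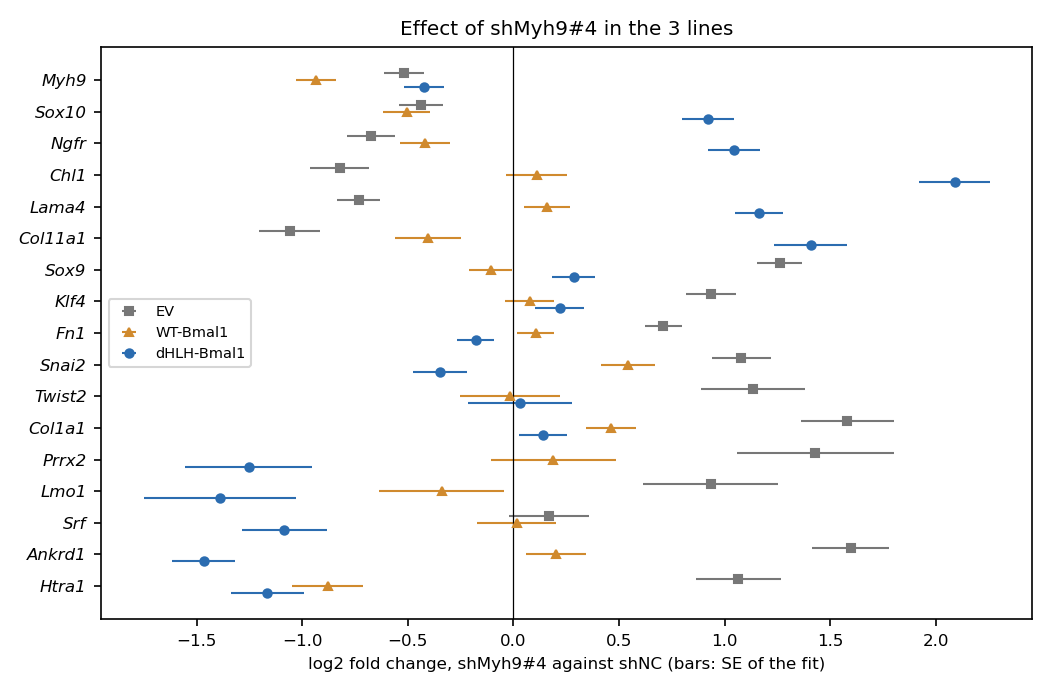
Log2 fold change of shMyh9#4 against shNC (x axis, bars are the SE of the fit, n = 2 libraries a group) for 17 genes (y axis) in EV (grey squares), WT-Bmal1 (orange triangles) and dHLH-Bmal1 cells (blue circles). Sox10, Ngfr, Lama4 and Col11a1 lie right of 0 in dHLH-Bmal1 and left in EV cells (Col11a1 1.41 and -1.06), and Ankrd1 (-1.47 and 1.60) the other way.

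The 2 hairpins were compared within dHLH-Bmal1 cells, where 2482 genes differed between shMyh9#4 and shMyh9#2 (16.7%), and 335 with the library score. The comparison against shMyh9#2 and that against shNC share the shMyh9#4 libraries, so the levels are set side by side. Sox10 was at 45.3 and 44.1 CPM with shMyh9#4, 22 and 25.6 with shNC and 14.0 and 11.9 with shMyh9#2, and was 1.82 higher with shMyh9#4 than with shMyh9#2 (SE 0.13, edgeR adjusted p = 5e-07). Against shNC, shMyh9#2 lowered it by 0.90 (SE 0.13, adjusted p = 0.003), so the hairpins moved this gene in opposite directions.

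Chl1 (7.84 and 9.85 CPM with shMyh9#2) and Ecel1 (13.1 and 10.5 CPM) followed Sox10, with shMyh9#2 effects of -0.89 (SE 0.19, edgeR adjusted p = 0.0405) and -1.31 (SE 0.13, adjusted p = 0.000106) and differences between the hairpins of 2.98 and 2.63. Lama4 was higher with both hairpins, at 49.4 and 48.1 CPM with shMyh9#2 (0.53, SE 0.11, adjusted p = 0.042), and 0.64 higher again with shMyh9#4 (SE 0.11, adjusted p = 0.00195). Htra1 fell with both, to 36.2 and 38.0 CPM with shMyh9#2 (-0.79, SE 0.16, adjusted p = 0.0389), and the hairpins did not differ by the test (-0.38, SE 0.18, adjusted p = 0.156). Ngfr stood at 59.1 and 57.1 CPM with shMyh9#2, close to its controls (0.20, adjusted p = 0.632).

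Ccl2 was at 13.3 and 15.5 CPM with shMyh9#2 and 14.4 and 14.3 CPM with shNC, and lower by 2.53 with shMyh9#4 than with shMyh9#2 (SE 0.40, edgeR adjusted p = 0.00107). Ankrd1 was at 51.1 and 56.8 CPM with shMyh9#2 (-0.43, adjusted p = 0.224) and lower by 1.03 with shMyh9#4 than with shMyh9#2. The hairpin with the smaller loss of Myh9 thus had the larger changes in Ccl2 and Ankrd1, and whether targets of the hairpin other than Myh9 took part was not tested.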

How the data were processed

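RNA of YUMM2.1 cells was made into QuantSeq 3′ libraries and read as single ends on a NextSeq 500. Per the methods and the labels, the authors aligned reads to mm10 with bowtie2 and counted them per gene with RSEM (1.2.3 in the submitters' processing notes), and the deposited values are whole-number counts for 51789 genes, not normalized. Here edgeR 4.0.16 (R 4.3.3) was run on the counts of the 18 hairpin libraries in 1 quasi-likelihood fit of 9 groups (TMM, filterByExpr, Benjamini-Hochberg, called at an adjusted p under 0.05), which left 14848 genes. Contrasts were shMyh9#4 against shNC in dHLH-Bmal1 cells, its difference from the same effect in EV and in WT-Bmal1 cells, and the 2 hairpins against each other and shMyh9#2 against shNC. The steps were tested on simulated counts. A 2 against 2 permutation test cannot go below p = 0.333, so single values got none.

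Depth of the 18 hairpin libraries ran from 3643332 to 17485144 counts. No gene set test was run. The library score is the leading axis of replicate differences outside the main comparison among genes with a mean over 5 CPM. Alternatives were DESeq2 1.42.0, other filters, a fit of all 40 libraries or of only those compared, a replicate block, each library left out, the score as a covariate and thinning to the shallowest library. Bounds set each library at 3 counts. Genes that share 3′ words of 50 bases with other transcripts (last 600 bases), or that overlap another gene, are uncertain, since reads may have been split between copies.

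Members and gene lists were chosen with earlier results of these data known. Genes were named by rule: Myh9, Arntl, Sox9, Sox10 and genes the study named for these cells. To these came the 12 protein-coding genes with the largest change in each direction among those called, whose groups did not overlap and whose counts averaged 20 or more over the 4 libraries, at most 6 called members of each of 26 lists, and 5 genes in each direction for each other comparison, 155 in all. Genes outside the rule are said to be so, and some results are not reported here.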

Additional observations from a re-analysis of the deposited data

Results flagged for a closer look

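The effect of shMyh9#4 was tested for a difference between lines by an interaction term (edgeR quasi-likelihood, Benjamini-Hochberg adjusted p under 0.05), which 1264 genes passed for dHLH-Bmal1 against EV cells and 461 for dHLH-Bmal1 against WT-Bmal1 cells. With the library score in the fit, 461 and 105 genes passed. Values below are the log2 effect in dHLH-Bmal1 cells minus that in the other line, for named genes that passed without the score. Which of them also passed with it is not given here. Groups of 2 libraries are too small to look for an outlying library.

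Against EV cells, the effect was higher for Rims1 (5.28), Anks1b (3.91), Fxyd3 (3.16), Insc (3.08), Pou3f1 (3.04) and Sox10 (1.36). It was lower for Rcc1 (-4.99), Prrx2 (-2.68), Lmo1 (-2.32), Junb (-1.56), Col1a1 (-1.44), Snai2 (-1.43), Srf (-1.25), Sox9 (-0.98), Fn1 (-0.89), Klf4 (-0.72) and Actn4 (-0.64). Nudt8 (-8.87) and Fbxl14 (-7.45) had no count in either dHLH-Bmal1 shMyh9#4 library, and Nlrp2 (-7.43) none in either EV shNC library, so the sizes of these 3 depend on the prior count of the fit and are no bounds. Within dHLH-Bmal1 cells alone, Nudt8 was at least 7.65-fold and Fbxl14 at least 5.29-fold lower with each library at a floor of 3 counts.

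Against WT-Bmal1 cells, the effect was higher for Rnf144a (3.17), Plpp2 (3.15), Fxyd3 (3.06), Pou3f1 (3.02), Ptges (2.58), Sox10 (1.43), Axl (0.52) and Myh9 (0.51). It was lower for Rcc1 (-4.55), Tmem216 (-4.16), Zfp968 (-3.68), Cox7c (-3.53), Thnsl1 (-3.47), Srf (-1.10) and Snai2 (-0.89). Of the 3′ words of Zfp968, 94.2% also occur in other transcripts. Rcc1 and Cox7c also differed between the replicates of WT-Bmal1 shMyh9#4, at 4.78 and 17.3 CPM and at 6.5 and 31.6 CPM.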

How the results depend on the processing

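Values here are numbers of genes called, in the order shMyh9#4 against shNC in dHLH-Bmal1 cells, its difference from EV cells, its difference from WT-Bmal1 cells, shMyh9#4 against shMyh9#2, and shMyh9#2 against shNC (2248, 1264, 461, 2482 and 83 as reported). With a log2 change of at least 1 also required they were 780, 737, 246, 871 and 30, and with the library score, added after the data were seen, 173, 461, 105, 335 and 213. Leaving out 1 library gave 194 to 2074, 314 to 1421, 37 to 1194, 279 to 2852 and 12 to 29. The difference from WT-Bmal1 cells and the effect of shMyh9#2 gave 899 and 176 with DESeq2's Wald test, and 1339 and 269 with no filter beyond 1 count. With only the libraries compared, the last 3 were 247, 672 and 1. After thinning to the shallowest library, also added later, the effect of shMyh9#2 gave 34. In the other settings each count stayed within 1.5 times. No named gene called in the main comparison changed direction in any setting. Some named genes that were not called did change sign, such as Klf4 (-0.05 to 0.33) and Dbp (-0.35 to 0.16).

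Replicate numbers did not pair the libraries, since same-numbered dHLH-Bmal1 libraries had a correlation of deviations of 0.0392 and 2 of 36 pairs of groups passed 0.1. With a replicate block the counts were 2182, 1196, 351, 2356 and 73. Of the 155 named genes, 99 lost a call with the library score and 97 without shMyh9#4 replicate 2. The cause was not tested. The shallowest library limits genes under about 1 CPM, which are 3 or fewer counts there.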
